A study of Mus musculus with 8 samples.

Results

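The genes described here build the machinery that copies DNA or supply its building blocks. They are 44 genes listed by symbol, from origin licensing factors and the MCM helicase to the DNA polymerases, the enzymes that make deoxynucleotides and the proteins that restore chromatin and DNA methylation behind the fork. All 44 were found among the 13245 genes of the deposited table, and all 44 had a mean above the minimum of 1 CPM set for testing. Measurements came from RNA-seq of CD8 T cells of mouse lymph node, sorted as Ly6C+CXCR3+, with 4 libraries from B6 (C57BL/6, wild-type) mice and 4 from CD103Tg mice, which the submitters describe as overexpressing CD103. Treatment, age, sex, how CD103 was overexpressed and the number of animals behind each library are not given in the sources used here, so p-values measure the spread between these libraries, which may in part be technical.

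Replication is prepared in G1, when the origin recognition complex together with Cdc6 and Cdt1 loads the MCM helicase onto origins. In S phase Cdc45 and the GINS complex join the helicase, polymerase alpha-primase lays down primers, polymerases epsilon and delta extend them on the PCNA clamp, and Fen1 and Lig1 join the fragments of the lagging strand. Resting T cells hold little of this machinery, and many of its genes are known targets of the E2F transcription factors, which switch them on as cells leave rest.

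The promoters of these genes are shown because the genes moved together, as described below, and because E2F sites are the feature best known for them. RefSeq (GRCm38.p6) windows of 300 bases, from 250 before to 50 after each start, were matched for 37 of the 44 genes. The letters TTTCCCGC, TTTGGCGC, TTTCGCGC and TTTGCCGC, searched on both strands with overlaps allowed, are common forms of an E2F site. They occurred in the windows of 15 of the 37 genes (40.5%), against 704 of 27025 genes with a window (2.605%) and 5.06% of the 8534 genes with a window that were also tested for expression. Counted by window, 15 of the 45 windows of these genes held a match (33.3%), against 2.26% of all 32851. Stretches just before the RefSeq start, outside annotated exons, are printed 5′ to 3′ on the strand of the gene with these letters in capitals, from Mcm6 (chr1:128359706-128359905, minus strand, the most abundant helicase subunit), Mcm5 (chr8:75109309-75109508, plus strand), Cdc6 (chr11:98907982-98908150, plus strand, among the genes with the greatest rise) and Pola1 (chrX:93632156-93632355, minus strand).
Mcm6: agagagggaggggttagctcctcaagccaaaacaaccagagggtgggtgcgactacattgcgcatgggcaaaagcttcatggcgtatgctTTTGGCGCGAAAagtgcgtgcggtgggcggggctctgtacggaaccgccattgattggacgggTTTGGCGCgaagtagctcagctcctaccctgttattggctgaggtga
Mcm5: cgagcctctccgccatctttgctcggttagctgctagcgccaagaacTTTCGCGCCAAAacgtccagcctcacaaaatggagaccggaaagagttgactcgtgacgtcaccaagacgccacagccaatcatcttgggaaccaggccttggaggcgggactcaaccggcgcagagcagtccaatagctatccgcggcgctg
Cdc6: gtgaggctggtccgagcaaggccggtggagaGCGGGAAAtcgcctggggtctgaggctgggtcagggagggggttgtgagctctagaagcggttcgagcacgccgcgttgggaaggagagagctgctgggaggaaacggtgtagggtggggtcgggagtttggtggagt
Pola1: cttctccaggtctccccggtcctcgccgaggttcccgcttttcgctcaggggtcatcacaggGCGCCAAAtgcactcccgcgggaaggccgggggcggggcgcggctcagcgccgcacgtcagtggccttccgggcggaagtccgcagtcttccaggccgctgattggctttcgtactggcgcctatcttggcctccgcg
In Mcm6 the letters began 110, 106 and 47 bases before the start, the first pair overlapping, and in Mcm5 an overlapping pair began at 153 and 149. The Cdc6 stretch precedes the RefSeq start but lies inside the gene as GENCODE M21 places it, in the first intron of transcripts that start farther upstream. In both Cdc6 and Pola1 the single match began 138 bases before the start, on the opposite strand.

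Other windows held none of these letters, including those of Rrm2, Mcm10, Tk1 and Tyms, which were all at least 2-fold higher in CD103Tg. Rrm2 (chr12:24708041-24708240, plus strand) and Mcm10 (chr2:5012792-5012991, minus strand) are printed with the letters CCAAT, or ATTGG on the other strand, in capitals, the core of a site bound by the factor NF-Y.
Rrm2: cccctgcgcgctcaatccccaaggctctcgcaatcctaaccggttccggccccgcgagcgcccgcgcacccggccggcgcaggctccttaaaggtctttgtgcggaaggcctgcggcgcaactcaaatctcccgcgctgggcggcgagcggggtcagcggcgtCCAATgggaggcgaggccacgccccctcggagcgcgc
Mcm10: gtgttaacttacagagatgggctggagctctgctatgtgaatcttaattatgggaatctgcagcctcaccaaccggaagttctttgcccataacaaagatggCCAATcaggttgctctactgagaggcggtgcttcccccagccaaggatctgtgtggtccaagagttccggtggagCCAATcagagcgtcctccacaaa
CCAAT occurred in the windows of 23 of the 37 genes (62.2%), against 41.1% of all genes with a window and 43.5% of those tested. The letters TTTGAA of the cell cycle element known from mitotic genes occurred in 13.5% of the 37, against 20.2% of all and 14.4% of tested genes, and the GC box GGGCGG in 75.7%, against 38.2% of all and 69.2% of tested genes. The median share of G and C was 58.3% in windows of the 37 genes against 52.7% over all windows, and it was not compared with the windows of tested genes. The median log2 fold change in expression was 0.57 for the 15 genes with the E2F letters and 0.38 for the 22 without, and the ranges overlapped, from -0.19 to 1.83 and from -0.06 to 2.21. A match is a run of letters and was not tested as a binding site.

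The libraries held 50187279 to 56371476 estimated reads over the listed genes, and 1 read was worth 0.0171 to 0.0203 CPM (counts per 1e6, on TMM-scaled library sizes). Itgae, which encodes CD103, stood at 37.5 to 174 CPM in B6 and 3469 to 5509 CPM in CD103Tg, as the labels state, and Cd247 at 285 to 478 CPM in B6 and 7877 to 10164 CPM in CD103Tg. The markers of the sorted cells were present in every library. Cd8a stood at 1150 to 1228 CPM in B6 and 944 to 1044 CPM in CD103Tg, and Cxcr3 at 506 to 542 and 415 to 489 CPM. Of the 11 genes on that list, which includes Itgae, 2 were called higher in CD103Tg, 2 lower and 7 were not called. Those called were Itgae and Il2rb (higher, Il2rb with means of 1389 and 2262 CPM) and Cd8a and Trac (lower, Trac with means of 1007 and 642 CPM). Of the markers of other cells, those of CD4 T cells summed to 3.65 to 5.196 CPM in B6 and 3.54 to 4.61 in CD103Tg. Of the 2 tested, Il2ra was called higher in CD103Tg (means of 1.92 and 3.08 CPM in B6 and CD103Tg) and Ctla4 was not called. Cd40lg, at 0.037 to 0.786 CPM and too low to be tested, had means of 0.560 CPM in B6 and 0.0487 CPM in CD103Tg. The 8 B cell markers in the table summed to 35.05 to 39.3 CPM and 37.0 to 47.4 CPM, most of it Cd79b. The 13 markers of myeloid and dendritic cells summed to 66.6 to 135 CPM and 94.8 to 190.3 CPM, and 4 of the 9 tested were higher in CD103Tg. Of 6 plasma cell markers 3 of 4 tested were higher, Igkc at 0.222 to 2.32 CPM in B6 and 5.77 to 85.2 CPM in CD103Tg, and Ighm fell, with the summed level at 826 to 926 CPM and 449 to 604 CPM. NK cell markers summed to 229 to 278 CPM and 566 to 924 CPM (5 of 7 tested higher; Ncr1 no more than 0.660 CPM), and gamma delta T cell markers to 16.7 to 27.2 CPM and 46.6 to 108.0 CPM (3 of 4 higher). The 5 erythroid and stromal markers summed to 93.5 to 116 CPM and 65.2 to 183 CPM, and CD103Tg replicate 4 held the highest haemoglobin levels, with Hbb-bs at 71.0 CPM against 0.186 to 22.1 CPM in the others. Y-linked genes summed to 277, 322, 0.0383 and 282 CPM in B6 and to 155, 243, 102 and 54.0 CPM in CD103Tg. Xist, the transcript of the inactive X chromosome, stood at 0.0214, 0.0390, 72.0 and 1.71 CPM in B6 and at 21.7, 0.0231, 36.4 and 45.2 CPM in CD103Tg, so CD103Tg replicates 1, 3 and 4 held both Xist and Y-linked transcripts, as did B6 replicate 4 at a low Xist level. The part of these markers and of the Xist and Y-linked levels in the results below was not tested, apart from a fit with the Y-linked level as a covariate, in which 34 of the 44 genes remained called.

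Most of the replication genes were higher in CD103Tg. The comparison asked how their levels differed between CD103Tg and B6, with limma on log2(CPM + 1) and p-values adjusted over the 11503 genes tested. A gene was called at an adjusted p under 0.05. Of the 44 genes, 36 rose, 0 fell and 8 were not called, where 17.4% of all genes tested were called higher and 13.8% lower. In 38 genes every CD103Tg library lay above every B6 library, where 17.4% of all genes tested did so. The median log2 fold change was 0.49, against -0.005 over all genes tested. At least a 2-fold rise, a log2 fold change of 1 or more, was found in 11 genes, which were Rrm2, Tk1, Cdc6, Clspn, Mcm10, Chaf1a, Tyms, Lig1, Uhrf1, Cdc45 and Orc1, where 3.64% of all genes tested were called with a rise of that size. Another 8 rose by 0.5 to 1 and 17 by less than 0.5. In bulk libraries, more cells with the transcripts and more RNA per cell cannot be told apart.

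**Figure D1:**
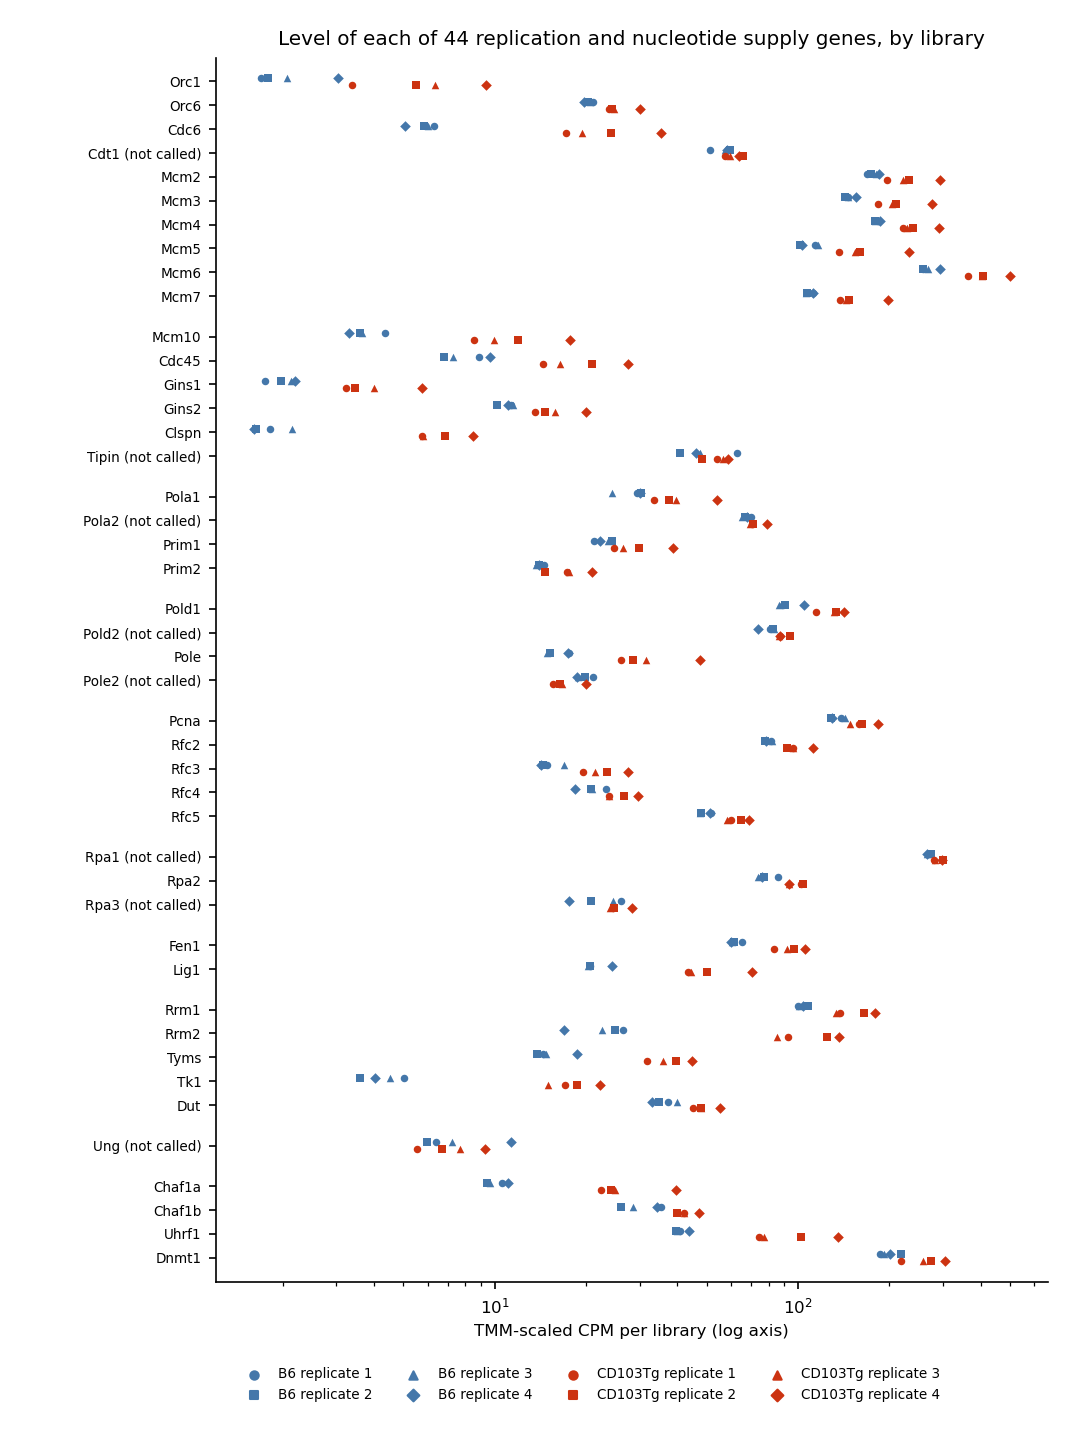
Level of each of the 44 genes in each library, in TMM-scaled CPM on a log axis, grouped by role from origin licensing at the top to chromatin copying at the bottom; blue marks are the 4 B6 libraries, red marks the 4 CD103Tg libraries, and the shape gives the replicate number. In 38 genes all red marks lie to the right of all blue marks, and the red diamond, CD103Tg replicate 4, is farthest right of all libraries in 37.

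The rise was not of one size in the 4 CD103Tg libraries. Summed over the 44 genes, the level was 2738, 2684, 2702 and 2757 CPM in B6 and 3406, 3835, 3604 and 4547 CPM in CD103Tg, or 2720.3 ± 32.9 against 3848 ± 498 CPM (mean ± SD, n = 4). The B6 libraries lay close together, and each CD103Tg library was above all of them. CD103Tg replicate 4 was the highest CD103Tg library in 40 of the 44 genes, against 28.3% of all genes tested, and CD103Tg replicate 1 was the lowest in 30. The median log2 difference of the 44 genes from the B6 mean was 0.31, 0.41, 0.42 and 0.75 in CD103Tg replicates 1 to 4. Without CD103Tg replicate 4, 33 of the 44 genes rose, 1 fell (Pole2), and the median log2 fold change was 0.38. That library also had the highest haemoglobin levels and the lowest Y-linked level of its group, given above, and their part in its position was not tested.

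**Figure D2:**
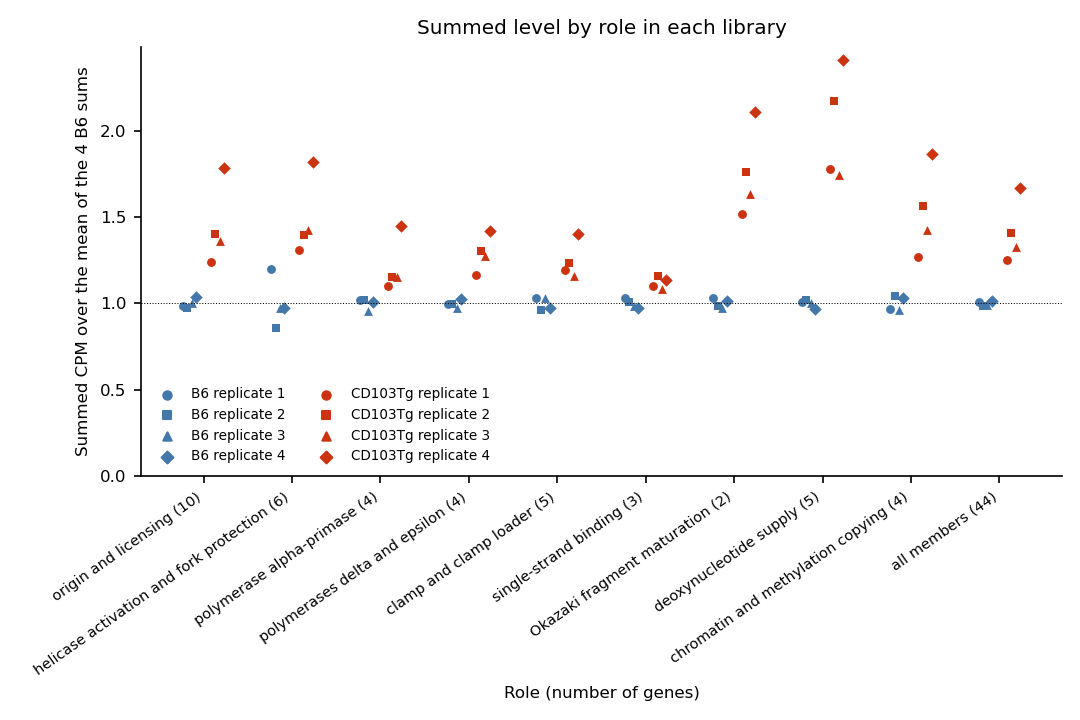
Summed CPM of the genes of each role with more than 1 gene, in each library, divided by the mean of the 4 B6 sums of that role, so that the dotted line at 1 is the B6 mean; marks are single libraries and the number of genes is in brackets. Of the roles drawn, deoxynucleotide supply stands highest in CD103Tg (sums of 317 to 438 CPM against 176 to 185 in B6) and single-strand binding lowest (400.0 to 429 against 360.3 to 382).

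Of the 10 origin and licensing genes, 9 rose and Cdt1 was not called, with a median log2 fold change of 0.52. The sharpest rise was in Cdc6 (chromosome 11, 98907801 to 98923940 on GRCm38), the ATPase that with Cdt1 brings MCM complexes to the origin. Cdc6 stood at 6.304, 5.85, 6.001 and 5.07 CPM in B6 replicates 1 to 4 and at 17.2, 24.2, 19.4 and 35.4 CPM in CD103Tg. Its lowest CD103Tg library was above every B6 library, and the log2 fold change reached 1.83 ± 0.18 (from here on, log2 fold changes are ± SE and mean levels ± SD, n = 4), at a limma adjusted p of 2.70e-05. Cdt1, its partner in loading, stood at 51.2, 59.6, 57.2 and 58.4 CPM in B6 and 57.5, 66.02, 59.7 and 63.9 CPM in CD103Tg. These values overlapped, with a log2 fold change of 0.12 ± 0.07 (limma adjusted p = 0.1896). Orc1, the large ATPase subunit of the origin recognition complex, stood at 1.698, 1.79, 2.06 and 3.05 CPM in B6 and 3.395, 5.5, 6.36 and 9.36 CPM in CD103Tg, a change of 1.14 ± 0.23 (limma adjusted p = 0.00357). The highest B6 library of Orc1 came close to the lowest CD103Tg library without overlapping it. Orc6, the smallest subunit of the complex, measured 19.7 to 21.1 CPM in B6 and 23.9 to 30.04 in CD103Tg and changed by 0.31 ± 0.08 (limma adjusted p = 0.0146).

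The 6 MCM subunits, which form the ring of the replicative helicase, all rose and were among the most abundant genes of the set. Mcm6 (chromosome 1, 128331590 to 128359664), whose promoter is printed above, was the highest. Mcm6 measured 258, 257, 267 and 293 CPM in B6 and 362, 407, 404 and 499 CPM in CD103Tg, with a log2 fold change of 0.63 ± 0.09 (limma adjusted p = 2.99e-04). Per kilobase of its principal transcript this was 92.5 CPM in B6 and 144 CPM in CD103Tg, the highest of the 44 genes on that scale in both groups. Mcm5 measured 114, 101, 116 and 103 CPM in B6 and 137, 159.8, 154 and 232 CPM in CD103Tg and changed by 0.62 ± 0.13 (limma adjusted p = 0.00459). The other subunits kept the same order of libraries at the top, with CD103Tg replicate 4 highest and all B6 libraries below all CD103Tg libraries. Mcm3 measured 143 to 155 CPM in B6 and 184 to 276 CPM in CD103Tg (0.55 ± 0.10, limma adjusted p = 0.00196). Mcm7 measured 107 to 112 and 137 to 197 CPM (0.49 ± 0.10, limma adjusted p = 0.00282). Mcm4 measured 179 to 187 and 222 to 291 CPM (0.42 ± 0.08, limma adjusted p = 0.00168). The smallest change was in Mcm2, from 177 ± 7.37 to 236 ± 41.4 CPM (SD, n = 4), a log2 fold change of 0.40 ± 0.10 (limma adjusted p = 0.0108). Together Mcm2 to Mcm7 summed to 982, 961, 997 and 1034 CPM in B6 and 1238, 1396, 1356 and 1790 CPM in CD103Tg, and made up 40.0% of the summed difference of the 44 genes.

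Helicase activation and fork protection rose in 5 of 6 genes, 3 of them at least 2-fold, with a median log2 fold change of 0.95. Clspn encodes claspin, which links stalled forks to the checkpoint kinase Chk1. It was the scarcest gene per kilobase, at 0.358 in B6 and 1.34 CPM in CD103Tg, and rested on at least 84 estimated reads in every library. Its levels were 1.81, 1.64, 2.15 and 1.605 CPM in B6 and 5.76, 6.86, 5.79 and 8.48 CPM in CD103Tg, a log2 fold change of 1.45 ± 0.14 (limma adjusted p = 1.76e-05). The groups were well apart, and CD103Tg replicate 4 was the highest library. Mcm10, which helps to start the loaded helicase, went from 4.34, 3.61, 3.64 and 3.295 CPM in B6 to 8.54, 11.9, 9.903 and 17.7 CPM in CD103Tg (1.42 ± 0.18, limma adjusted p = 1.51e-04). Cdc45, the helicase partner of the MCM ring and GINS, went from 8.87, 6.79, 7.29 and 9.63 CPM to 14.4, 20.9, 16.4 and 27.5 CPM (1.16 ± 0.18, limma adjusted p = 5.50e-04). In both, CD103Tg replicate 4 was highest and replicate 1 lowest of the CD103Tg libraries. Of the GINS subunits, Gins1 and Gins2 rose, whereas Gins3 and Gins4, which are among the other replication genes below, were not called. Gins3 changed by 0.21 ± 0.08 (limma adjusted p = 0.0721). Gins4, the most abundant GINS subunit, went from 50.2 ± 3.05 to 51.4 ± 2.20 CPM (0.03 ± 0.06, limma adjusted p = 0.727). Gins1 rose from 2.01 ± 0.204 to 4.11 ± 1.15 CPM (0.74 ± 0.15, limma adjusted p = 0.00402). Gins2 rose from 11.003 ± 0.579 to 16 ± 2.84 CPM (0.49 ± 0.11, limma adjusted p = 0.00719). The libraries do not mark strand, and 67.3% of the exonic bases of Gins2 are shared with Gse1 on the opposite strand, which stood at 12.02 CPM in B6 and 13.7 in CD103Tg, so the Gins2 value is uncertain. Tipin, a fork protection subunit, stood at 62.998, 40.8, 47.4 and 46.1 CPM in B6 and 54.1, 48.4, 56.4 and 58.9 CPM in CD103Tg (0.15 ± 0.12, limma adjusted p = 0.346). The highest of these 8 values was B6 replicate 1, and without it Tipin rose by 0.28 (limma adjusted p = 0.0333).

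Polymerase alpha-primase, which makes the primers, rose in 3 of 4 subunits by less than 0.5. Pola1, the catalytic subunit, whose promoter is printed above, stood at 29.5, 30.3, 24.3 and 30.1 CPM in B6 and 33.4, 37.4, 39.6 and 53.9 CPM in CD103Tg (0.49 ± 0.13, limma adjusted p = 0.0145). Pola2, its accessory subunit, stood at 69.998, 67.02, 65.2 and 67.9 CPM and 70.7, 70.98, 69.4 and 79.2 CPM (0.10 ± 0.06, limma adjusted p = 0.208). Pola1 did not overlap between groups, whereas in Pola2 the lowest CD103Tg library lay below the highest B6 library. The primase subunits were close to the threshold. Prim1, the catalytic one, measured 22.9 ± 1.34 CPM in B6 and 29.9 ± 6.22 CPM in CD103Tg (0.36 ± 0.12, limma adjusted p = 0.0445), and Prim2 measured 14.03 ± 0.343 and 17.6 ± 2.54 CPM (0.30 ± 0.10, limma adjusted p = 0.0406). Both calls were lost in most of the fits that left out a library. With 1 library left out at a time, Prim1 remained called without CD103Tg replicate 1 or 3 and was lost without any of the others (adjusted p = 0.0615 to 0.101). Prim2 remained called without CD103Tg replicate 2 and was lost without any of the others (adjusted p = 0.0615 to 0.0911). The log2 fold changes were smallest without CD103Tg replicate 4, at 0.23 for Prim1 and 0.22 for Prim2.

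Of the 4 subunits of the main polymerases among the genes described here, both catalytic ones rose, and Pole2 and Pold2 were not called. This split did not extend to the subunits among the other replication genes below. Of those, Pold3 rose from 61.9 ± 1.68 to 77.1 ± 7.98 CPM (0.31 ± 0.07, limma adjusted p = 0.00763). Pold4, Pole3 and Pole4 were not called (limma adjusted p = 0.324, 0.0739 and 0.163). Pole, the catalytic subunit of polymerase epsilon on the leading strand, measured 17.6, 15.2, 14.9 and 17.4 CPM in B6 and 26.1, 28.5, 31.5 and 47.5 CPM in CD103Tg and rose by 0.96 ± 0.16 (limma adjusted p = 7.86e-04). Pole2, its second subunit, measured 21.04, 19.8, 18.7 and 18.7 CPM in B6 and 15.6, 16.5, 16.6 and 19.97 CPM in CD103Tg, with a log2 fold change of -0.19 ± 0.09 (limma adjusted p = 0.142). In 3 of the 4 CD103Tg libraries Pole2 was below every B6 library, and the exception was CD103Tg replicate 4. Without that library Pole2 fell by 0.26 on the log2 scale (limma adjusted p = 0.0334). Pold1, the catalytic subunit of polymerase delta, rose from 92.6 ± 8.12 to 130.3 ± 11.4 CPM (0.49 ± 0.08, limma adjusted p = 6.77e-04). Pold2, its accessory subunit, measured 73.8 to 83.4 CPM in B6 and 86.8 to 94.05 CPM in CD103Tg. These ranges did not overlap, but Pold2 was not called (0.15 ± 0.06, limma adjusted p = 0.0689).

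All 5 genes of the sliding clamp and its loader rose, by 0.27 to 0.57. Pcna, the ring that tethers polymerases to DNA, stood at 138, 128, 142 and 129 CPM in B6 and 158, 163, 149 and 183 CPM in CD103Tg (0.27 ± 0.07, limma adjusted p = 0.01003). Per kilobase Pcna was second to Mcm6 in B6, at 88.6 CPM, and stood at 107 CPM in CD103Tg. Pseudogenes are annotated for Pcna and for Tyms, so reads could be divided between copies. Among the RFC subunits, which open and close the clamp, Rfc3 changed most, from 15.1 ± 1.247 to 22.9 ± 3.47 CPM (0.57 ± 0.11, limma adjusted p = 0.00211). Rfc5 rose by 0.34 ± 0.07 (limma adjusted p = 0.00247) and Rfc2 by 0.30 ± 0.06 (limma adjusted p = 0.004598). Rfc4, at 18.4 to 23.2 CPM in B6 and 23.8 to 29.6 CPM in CD103Tg, rose by 0.30 ± 0.09 (limma adjusted p = 0.02904), with its lowest CD103Tg library just above its highest B6 library. Rfc4 was not called without B6 replicate 2, 3 or 4 or without CD103Tg replicate 2 or 4 (0.24 to 0.31, adjusted p = 0.0563 to 0.0748), and 12.7% of its exonic bases are shared with Eif4a2 on the other strand, which fell by 0.41 on the log2 scale.

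Of RPA, the complex that coats single-stranded DNA, 1 of 3 subunits rose. Rpa1, its largest subunit, stood at 270.2, 274, 267 and 266 CPM in B6 and 280.0, 300.2, 283 and 299 CPM in CD103Tg. The groups did not overlap, but the difference was small and not called (0.11 ± 0.05, limma adjusted p = 0.0996). Rpa2 rose from 78.3 ± 5.26 to 98.1 ± 5.74 CPM (0.32 ± 0.06, limma adjusted p = 0.00276), and here CD103Tg replicate 4 was the lowest CD103Tg library. Rpa3 overlapped between groups, at 17.5 to 26.02 and 23.9 to 28.3 CPM (0.19 ± 0.11, limma adjusted p = 0.228).

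The enzymes that finish lagging strand fragments both rose. Lig1, the ligase that seals them, stood at 20.5, 20.6, 20.3 and 24.4 CPM in B6 and 43.3, 50.2, 44.3 and 70.3 CPM in CD103Tg (1.22 ± 0.14, limma adjusted p = 5.52e-05). Every CD103Tg library was well above the highest B6 library. Fen1, the flap endonuclease that trims the fragments before sealing, stood at 65.2, 61.5, 60.6 and 60.1 CPM and 83.3, 96.7, 91.7 and 105 CPM (0.60 ± 0.07, limma adjusted p = 8.93e-05). Although 78.8% of the exonic bases of Fen1 are shared with the antisense gene Gm10143, that gene measured 1.67 CPM in B6 and 1.44 in CD103Tg. Tmem258, also on the opposite strand, shares 5.4% of the exonic bases of Fen1 and measured 74.3 CPM in B6 and 73.5 in CD103Tg. The part of these overlaps in the Fen1 level was not tested.

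Deoxynucleotide supply held the greatest rises of the 44 genes. All 5 genes rose, with a median log2 fold change of 1.246, and their summed level went from 182 ± 3.75 to 369 ± 58.2 CPM. Rrm2 (chromosome 12, 24708241 to 24714146) encodes the small subunit of ribonucleotide reductase, the enzyme that turns ribonucleotides into deoxyribonucleotides. Rrm2 stood at 26.6, 24.96, 22.6 and 16.9 CPM in B6 and 92.5, 124, 85.4 and 136 CPM in CD103Tg, with no overlap. Its log2 fold change of 2.21 ± 0.16 was the largest of the 44 (limma adjusted p = 3.74e-06). Rrm1, the large subunit, rose less, from 99.96, 108, 101 and 104 CPM to 138, 164, 133 and 179.7 CPM (0.56 ± 0.09, limma adjusted p = 6.20e-04). Per kilobase, Rrm1 was above Rrm2 in B6 (25.8 against 10.4 CPM) and below it in CD103Tg (38.5 against 49.97 CPM). Tk1, the thymidine kinase of the salvage route (chromosome 11, 117815526 to 117826092), stood at 5.002, 3.61, 4.52 and 4.03 CPM in B6 and 16.98, 18.7, 14.9 and 22.2 CPM in CD103Tg (1.85 ± 0.13, limma adjusted p = 2.86e-06). Tyms, thymidylate synthase of the de novo route, stood at 14.5, 13.8, 14.7 and 18.7 CPM and 31.8, 39.6, 35.8 and 44.8 CPM (1.246 ± 0.12, limma adjusted p = 1.79e-05). Both genes were higher in every CD103Tg library than in any B6 library. Dut, which breaks down dUTP and keeps uracil out of DNA, rose from 36.2 ± 2.97 to 48.99 ± 4.35 CPM (0.43 ± 0.08, limma adjusted p = 0.00204). Ung, the glycosylase that removes uracil from DNA, did not follow. Ung stood at 6.395, 5.97, 7.25 and 11.3 CPM in B6 and 5.53, 6.68, 7.71 and 9.27 CPM in CD103Tg, overlapping throughout (-0.06 ± 0.19, limma adjusted p = 0.855).

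The 4 genes that copy chromatin and DNA methylation all rose. Chaf1a, the large subunit of the CAF-1 chaperone that places histones on new DNA, stood at 10.6, 9.43, 9.65 and 11.1 CPM in B6 and 22.4, 24.2, 24.9 and 39.6 CPM in CD103Tg (1.33 ± 0.15, limma adjusted p = 6.83e-05). Its exons share 52.5% of their bases with Ubxn6 on the other strand, which measured 46.04 CPM in B6 and 44.1 in CD103Tg, so the level of Chaf1a is uncertain. Chaf1b, the middle subunit, rose from 31.03 ± 4.38 to 42.7 ± 3.08 CPM (0.46 ± 0.10, limma adjusted p = 0.00461). Uhrf1, which recognises hemimethylated DNA and brings Dnmt1 to it, stood at 40.8, 39.5, 39.8 and 43.6 CPM in B6 and 74.4, 102, 77.1 and 136 CPM in CD103Tg (1.19 ± 0.16, limma adjusted p = 1.79e-04). Dnmt1, the maintenance methyltransferase, stood at 187, 218, 192 and 201 CPM and 218, 275, 258 and 304 CPM (0.39 ± 0.09, limma adjusted p = 0.00733). For Dnmt1 the lowest CD103Tg library and the highest B6 library were almost level.

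The largest fold changes were in genes that were scarce in B6, though Ung, also scarce, was not called. The 11 genes with at least a 2-fold rise had B6 means of 1.80 to 40.9 CPM (median 8.14), whereas the other genes had a median of 56.6 CPM. The 10 genes at 100 CPM or more in B6 changed by 0.11 to 0.63 on the log2 scale (median 0.46). Across the 44 genes, which share the same 8 libraries and are not independent, the log2 fold change correlated with the log2 B6 mean at a Spearman rho of -0.41 and a Pearson r of -0.51, where over all genes tested rho was -0.03. The B6 mean enters both quantities, and the pseudocount of 1 pulls the changes of scarce genes toward 0. The 11 genes with at least a 2-fold rise made up 24.4% of the summed difference of 1128 CPM, and the largest differences of single genes were those of Mcm6 (149 CPM) and Rrm2 (86.8 CPM).

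**Figure D3:**
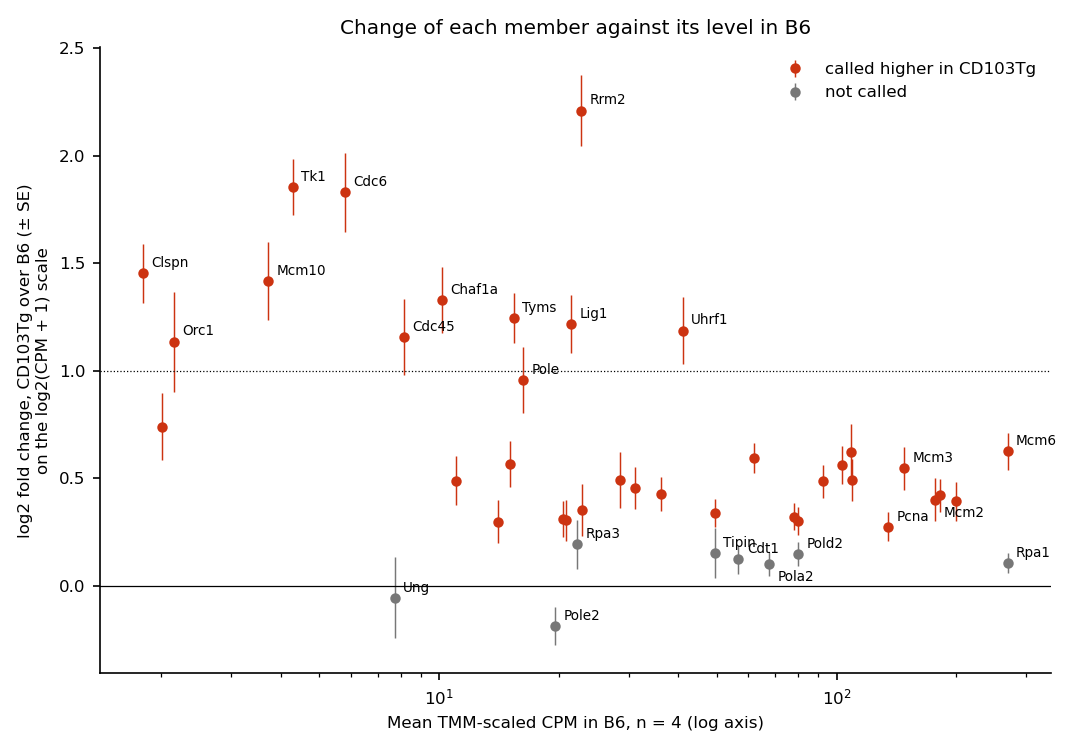
Log2 fold change of each of the 44 genes (CD103Tg over B6, on the log2(CPM + 1) scale, bars ± SE) against its mean level in B6 (TMM-scaled CPM, log axis, n = 4); red genes were called higher, grey genes were not called, and the dotted line marks a 2-fold rise. Genes above the dotted line lie at B6 means of 1.80 to 40.9 CPM, and the genes at 100 CPM or more lie between 0.11 and 0.63.

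Partner genes were compared within each library, as the log2 ratio of their (CPM + 1) values, to ask whether they changed by equal amounts. With 4 libraries a group, an exact two-sided permutation test over 70 assignments cannot give a p below 0.0286, and 22 ratios were tested. In 10 ratios the groups did not overlap and p took that smallest value, which became 0.0629 after Benjamini-Hochberg adjustment over the 22, so no ratio passed. The widest shift was between the licensing partners, where the ratio of Cdt1 to Cdc6 went from 3.08 ± 0.19 to 1.38 ± 0.38 (SD, n = 4). Rrm2 to Rrm1 went from -2.15 ± 0.28 to -0.50 ± 0.12, a difference of 1.65. Pole2 to Pole went from 0.25 ± 0.11 to -0.89 ± 0.23, so the catalytic subunit was the lower of the pair in B6 and the higher in CD103Tg on this scale, which does not correct for transcript length. The other ratios without overlap were Chaf1b to Chaf1a (-0.87), Uhrf1 to Dnmt1 (0.79), Lig1 to Fen1 (0.62), Tk1 to Tyms (0.61), Pola1 to Pola2 (0.39), Gins2 to Gins1 (-0.25) and Mcm2 to the mean of the other MCM subunits (-0.14). Gins1 is low, and the difference of Gins2 to Gins1 was 0.01 with a pseudocount of 5 and -0.44 with one of 0.1. The MCM subunits shifted little against each other, by -0.14 to 0.13. Prim1 to Prim2 (0.06), Rfc4 to Rfc5 (-0.03) and Rpa3 to Rpa1 (0.09) overlapped between groups.

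**Figure D4:**
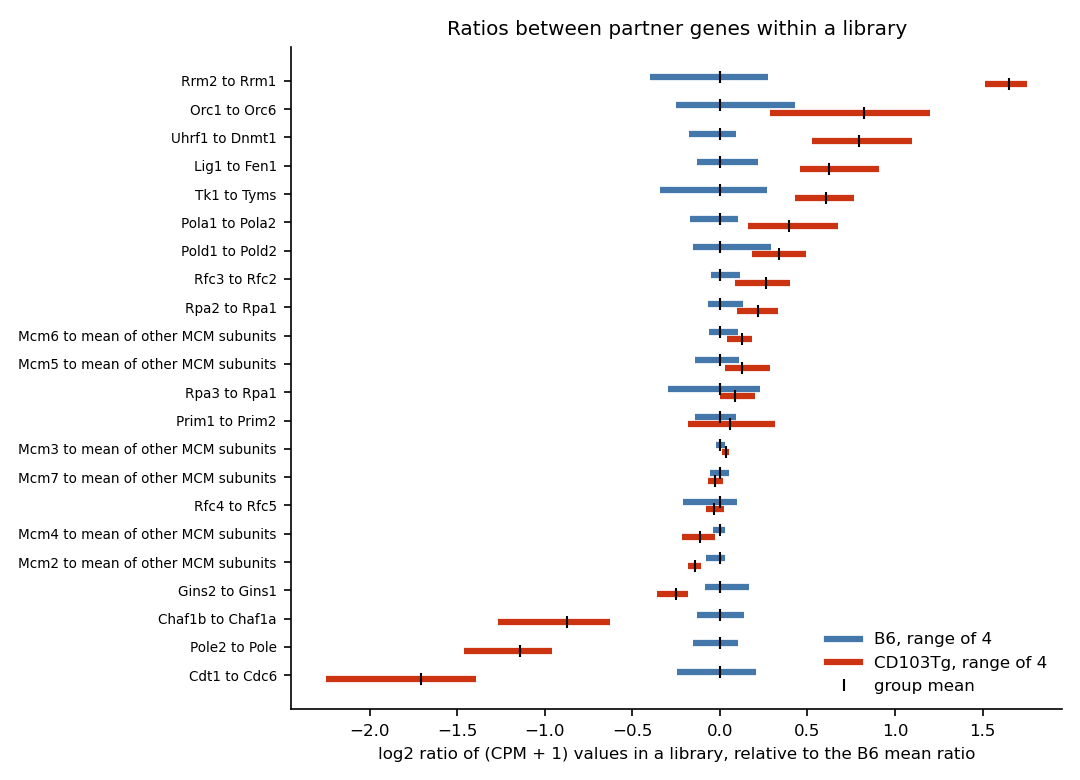
Log2 ratio of partner genes within a library, shown as the difference from the B6 mean ratio; bars span the 4 libraries of a group (blue B6, red CD103Tg) and ticks mark group means. The red bar lies clear of the blue one in 10 of the 22 ratios, from Cdt1 to Cdc6 at -1.71 to Rrm2 to Rrm1 at 1.65.

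Other lists of the pathway differed in how many of their genes were called. Of 39 other replication genes tested, 15 rose and 0 fell, with a median log2 fold change of 0.15. Those with the smallest p were Top2a, the topoisomerase that untangles copied chromosomes (2.02 ± 0.17, limma adjusted p = 9.11e-06), Esco2, the cohesin acetyltransferase (1.86 ± 0.17, limma adjusted p = 1.43e-05), and Dna2, a nuclease and helicase of fragment processing (1.40 ± 0.16, limma adjusted p = 5.60e-05). The subunits Orc2, Orc3, Orc4 and Orc5 of the origin recognition complex were not called, while Orc1 and Orc6 rose, though that difference was not tested. Of 33 other genes of nucleotide and one-carbon supply, 6 rose and 2 fell, with a median of -0.03, and the share that rose was near the 17.4% of all genes tested. Samhd1, which breaks down deoxynucleotides, rose from 200.1 ± 17.97 to 404 ± 13.3 CPM (1.02 ± 0.07, limma adjusted p = 1.96e-06). Ada, adenosine deaminase, rose by 0.75 ± 0.08 (limma adjusted p = 5.52e-05), and Atic, of purine synthesis, changed by -0.47 ± 0.06 (limma adjusted p = 1.28e-04). Rrm2b, the alternative small subunit of ribonucleotide reductase, is named after its values were seen: it went from 39.1 ± 4.49 to 29.9 ± 3.94 CPM (-0.38 ± 0.10, limma adjusted p = 0.0162), opposite in sign to Rrm2.

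Among 18 E2F and pocket protein genes and their partners, 11 rose and 1 fell (E2f5, by 0.35 on the log2 scale), with a median of 0.26. E2f1 rose from 8.93 ± 0.666 to 24.4 ± 4.51 CPM (1.34 ± 0.12, limma adjusted p = 1.31e-05). Foxm1 and Mybl2, factors of later cell cycle genes, rose by 1.48 ± 0.15 (limma adjusted p = 2.50e-05) and 1.54 ± 0.16 (limma adjusted p = 3.16e-05). Of 24 genes of the replication checkpoint and fork repair, 10 rose and 0 fell, with a median of 0.18, among them the kinase Wee1 (1.185 ± 0.14, limma adjusted p = 7.11e-05). Of 13 G1 cyclins, kinases and inhibitors, 9 rose and 0 fell, with a median of 0.69. They included both cyclins, such as Ccnd3 (0.73 ± 0.09, limma adjusted p = 9.50e-05) and Ccne1 (0.72 ± 0.10, limma adjusted p = 1.97e-04), and an inhibitor of Cdk4 and Cdk6, Cdkn2c (1.75 ± 0.16, limma adjusted p = 1.60e-05). Of 26 mitosis genes, 25 rose and 0 fell, with a median of 1.95, above the 0.49 of the 44 genes described here. Prc1 (2.26 ± 0.15, limma adjusted p = 1.78e-06) and Tpx2 (1.86 ± 0.15, limma adjusted p = 5.49e-06), both spindle proteins, had the smallest p there, next to Top2a, which is on both lists. The mitosis genes summed to 233, 210.1, 193 and 142 CPM in B6 and to 654, 789.9, 541 and 878 CPM in CD103Tg. CD103Tg replicate 4 was highest in this sum as in the sum of the 44 genes, but replicate 3 was lowest in the first and replicate 1 in the second.

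**Figure D5:**
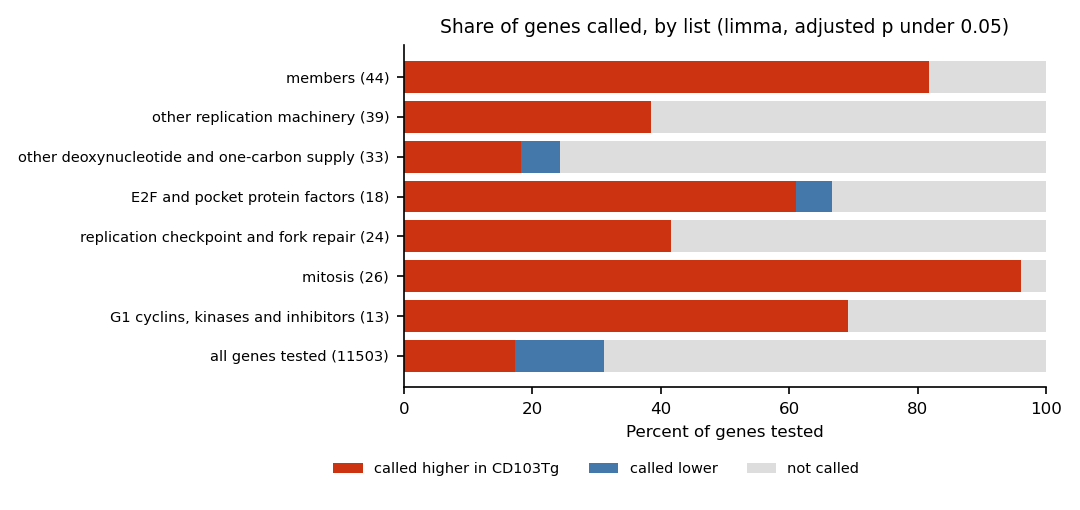
Percent of tested genes of each list that limma called higher (red) or lower (blue) in CD103Tg at an adjusted p under 0.05, with the number tested in brackets. Of the 44 genes 36 were called higher, against 25 of 26 mitosis genes, 15 of 39 other replication genes and 2000 of all 11503 genes tested.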

How the data were processed

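RNA of sorted lymph node CD8 T cells was turned into libraries with the SMART-Seq v4 and Nextera XT kits, per the labels' protocols. These libraries mark neither strand nor molecule. Tools named are RSEM, STAR 2.7.0f, cutadapt 1.18 and bcl2fastq 2.17, and builds mm10 and GRCm38, per the submitters' processing notes. The authors deposited 1 table of TMM-scaled CPM, a normalized signal per gene and not counts, for a gene set that they filtered by a rule not given in the sources used here. All 13245 gene IDs matched GENCODE M21, used for coordinates. All values were hundredths of reads (within 0.05 of a hundredth), so estimated reads were recovered for depth and for 1 alternative.

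Genes averaging 1 CPM or more were fitted with limma 3.58.1 (R 4.3.3, trend, genotype only, two-sided, Benjamini-Hochberg over 11503 genes) on log2(CPM + 1). Positive changes mean higher in CD103Tg, and the scale understates changes of low genes. Partner ratios had exact permutation tests. The fit was tested on simulated data, drawn independently for each gene and library. That simulation does not cover shifts shared by many genes of a library. Python 3.11.15, numpy 2.4.6, scipy 1.17.1, pandas 2.3.3 and matplotlib 3.10.9 were used. The members and lists were chosen with earlier results of these data known. Named were all members, the 3 genes with the smallest p of each other pathway list, and Itgae and Cd247. Some genes that this rule names are not reported here. A few others were named after their values were seen. Among them are Rrm2b, E2f5, Rfc1 and the other Orc, GINS and polymerase subunits. Marker genes give the range of their lists. Alternatives were a pseudocount of 0.1 or of 5, testing all genes or those averaging 5 CPM or more, scaling by equal totals, by quantiles or by median of ratios, the replicate number as a block, each library left out, both libraries numbered 4 left out, voom on estimated reads, and the Y-linked level as a covariate.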

Additional observations from a re-analysis of the deposited data

Results flagged for a closer look

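In 8 of 88 sets of 4 libraries (44 genes in each genotype), 1 library stood apart from the other libraries of its genotype. The rule was Dixon's criterion at the 95% level, which by chance marks about 1 set in 20. The sets share the same libraries and are not independent, so the number marked cannot be set against that share. Of the 8 marked sets, 5 were marked for CD103Tg replicate 4, above the rest of its group. Orc6 was at 30.04 CPM there against 23.9 to 24.8 in the other CD103Tg libraries, Mcm7 at 197 against 137 to 147, and Pola2 at 79.2 against 69.4 to 71.0. Rpa3 was at 28.3 CPM in CD103Tg replicate 4 against 23.9 to 24.6, and Chaf1a at 39.6 against 22.4 to 24.9. Pold2 was at 94.0 CPM in CD103Tg replicate 2 against 86.8 to 87.3. In B6, Pola1 was at 24.3 CPM in replicate 3 against 29.5 to 30.3, and Lig1 was at 24.4 CPM in replicate 4 against 20.3 to 20.6.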

How the results depend on the processing

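The number of the 44 genes called higher was 36 with pseudocounts of 0.1 and 5, without the filter, with median-of-ratios scaling and with voom on estimated reads, 34 with quantile or equal-total scaling and with the Y-linked covariate, 33 of 41 tested at a minimum of 5 CPM, and 33 to 35 with each library left out in turn. Of the 36 called genes, 33 kept the call in every alternative that tested them, whereas Rfc4 lost it with libraries left out and with the block, and Prim1 and Prim2 with libraries left out, with quantile and equal-total scaling and with the Y-linked covariate. Genes called lower were 0 in most settings and 1 (Pole2) without CD103Tg replicate 4 and without both libraries numbered 4, so over the libraries left out in turn the number was 0 to 1. The log2 fold change of Ung, with the libraries left out in turn, ranged from -0.1642 to 0.1224, turning sign without CD103Tg replicate 1 (0.0533) or without B6 replicate 4, and was 0.0134 without both libraries numbered 4. Of the ratios, Gins2 to Gins1 turned to 0.0129 with a pseudocount of 5 and was -0.4439 with a pseudocount of 0.1. With the libraries left out in turn, Rpa3 to Rpa1 ranged from -0.0115 (without B6 replicate 4) to 0.1636, and Prim1 to Prim2 from -0.0312 (without CD103Tg replicate 2) to 0.135. The cause was not tested.

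Quantile and equal-total scaling moved the split of all called genes from 2000 higher and 1592 lower to 1741 and 1995, and to 1756 and 1848, and shifted the median of all genes by -0.03. Libraries with the same replicate number did not deviate together in every pair (correlations of 0.22, 0.35, -0.08 and 0.12), so the numbers were not taken as pairs. With the replicate number as a block, 35 of the 44 genes were called higher and 0 lower, Rfc4 losing its call (limma adjusted p = 0.0577), and 2029 of all genes were called higher and 1653 lower. Over the partner ratios, permutation within replicate numbers cannot give a p below 0.125. Each of the 44 genes rested on at least 84 estimated reads in every library, and a change that missed the threshold, as in Rpa1 and Pola2, is not shown to be absent.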
